A study of Mus musculus with 12 samples.

Results

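Calcineurin is a phosphatase that calcium and calmodulin switch on. It removes phosphates from the NFAT transcription factors, which then enter the nucleus, where several kinases rephosphorylate them and send them out again. Rcan1 binds calcineurin and restrains it, and 1 of its transcripts is itself switched on by NFAT, so that Rcan1 is known as a feedback regulator. In skeletal muscle the pathway is known for its part in the slow-fibre programme.

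The genes described here are Rcan1, the calcineurin subunit genes Ppp3ca, Ppp3cb and Ppp3r1, and the NFAT genes Nfatc1, Nfatc2, Nfatc3 and Nfatc4. They were picked by symbol from the 10187 genes of a triceps RNA-seq table, and all 8 were present. The set was drawn up with the activity and genotype changes of these same mice known. The values below are therefore a description, and how many of these genes were called supports nothing further.

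RNA came from the triceps brachii in 12 mice, all male C57/BL6, with 3 separate mice in each of 4 groups. Inactive wild-type and active wild-type mice had intact myostatin genes, and inactive and active myostatin-reduced mice carried floxed myostatin (Mstn) genes with a Cre recombinase that tamoxifen activates. Mice of all 4 groups, controls included, ate chow with 0.025% tamoxifen for 6 weeks from 4 months of age. Active mice were then housed singly with a running wheel from 6 months of age for 12 weeks, and inactive mice had no wheel. Mice were housed in groups before the trial, and only active mice are described as moved to single housing. Running and single housing therefore cannot be told apart in the activity changes. The promoter that drives the Cre is not given in the sources used here. Values are the authors' normalized read counts. These summed to between 927958 and 1080139 per mouse, and the step between low values put the reads counted in the 10187 genes at an estimated 9023126 to 12186174. Reads outside these genes are not part of that estimate. Muscle fibre markers (Acta1, Ckm, Ttn, Des and Myh4) summed to between 120958 and 197106 normalized reads in every mouse. Mstn (chromosome 1, 53118507 to 53124923, plus strand) ranged from 79.7 to 138 in the 6 wild-type mice and from 8.70 to 21.6 in the 6 myostatin-reduced mice. Its genotype change was −2.66 on the log2 scale (adjusted p = 1.29e-06, limma, Benjamini-Hochberg over all genes tested), so the genotype labels and the targeted transcript matched in all 12 mice. In whole muscle, fewer cells of a type and less RNA per cell cannot be told apart.

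Rcan1 has 2 annotated coding transcripts with different starts, and the deposited values add the reads of both. The gene lies on the minus strand of chromosome 16 (92392198 to 92466391, mouse build NCBIM37). The 2 stretches of 250 bases that RefSeq places before Rcan1 starts are shown because the response to NFAT is known for only 1 of the transcripts. They are on build GRCm38.p6, whose positions cannot be compared with those of NCBIM37, 5′ to 3′ on the minus strand, with each GGAAA or its reverse complement TTTCC, the core letters that NFAT proteins are known to bind, in capitals.
Rcan1, far start, chr16:92466170-92466419: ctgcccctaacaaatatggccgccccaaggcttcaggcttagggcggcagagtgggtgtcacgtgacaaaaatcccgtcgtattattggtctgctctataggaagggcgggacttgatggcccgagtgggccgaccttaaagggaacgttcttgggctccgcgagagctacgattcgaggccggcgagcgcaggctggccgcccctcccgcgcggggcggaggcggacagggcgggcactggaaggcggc
Rcan1, near start, chr16:92400079-92400328: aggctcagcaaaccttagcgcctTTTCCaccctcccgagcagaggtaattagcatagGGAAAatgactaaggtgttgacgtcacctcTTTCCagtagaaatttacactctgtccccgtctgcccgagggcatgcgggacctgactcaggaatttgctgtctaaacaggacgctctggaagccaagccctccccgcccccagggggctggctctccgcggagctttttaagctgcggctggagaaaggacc
The first stretch held the letters 0 times and the second 3 times on either strand. Of 32851 mouse promoters of this length, 55.6% held at least 1 match and 6.39% at least 3. A match of 5 letters is a description of the sequence and does not show a bound site. Gene totals do not say which start the reads came from. Among the other genes, the stretch for Ppp3cb and that for Nfatc4 held 3 matches each, that for Ppp3r1 held 0, the 2 stretches for Nfatc2 held 3 and 1, and the 2 for Nfatc3 held 1 and 0. No stretch was examined for Ppp3ca or Nfatc1.

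Per kilobase of the longest annotated coding transcript, the calcineurin subunits and Rcan1 lay above the NFAT genes. The mean over the 12 mice was 110 normalized reads per kilobase for Ppp3cb, which encodes the beta catalytic subunit, 79.3 for Ppp3r1, which encodes the calcium-binding regulatory subunit, and 38.0 for Ppp3ca, which encodes the alpha catalytic subunit. Rcan1 followed at 34.6. The NFAT genes stood at 11.9 for Nfatc3, 10.7 for Nfatc1, 3.39 for Nfatc2 and 0.752 for Nfatc4. The order of Ppp3ca and Rcan1 on this scale differed by group. In active wild-type mice all Rcan1 levels (39.4 to 42.8 per kilobase) lay above all Ppp3ca levels (31.4 ± 3.33, SD, n = 3), in inactive myostatin-reduced mice Rcan1 (24.3 to 28.2) lay below Ppp3ca (43.0 to 45.1), and in the other two groups they overlapped. Within each of the 4 groups all Ppp3cb levels lay above all Ppp3r1 levels, for example 115 to 130 against 85.9 to 106 per kilobase in inactive wild-type mice. Nfatc3 and Nfatc1 overlapped in every group but active wild-type, where Nfatc3 (10.6 to 12.8 per kilobase) lay above Nfatc1 (8.84 to 9.71). Nfatc4 was read at only 1.34 to 4.62 normalized reads per mouse, with a mean under the minimum of 10 that a gene needed to be tested, so 7 of the 8 genes were tested. These levels depend on which transcript length is used, since all transcripts of a gene were added together.

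**Figure D1:**
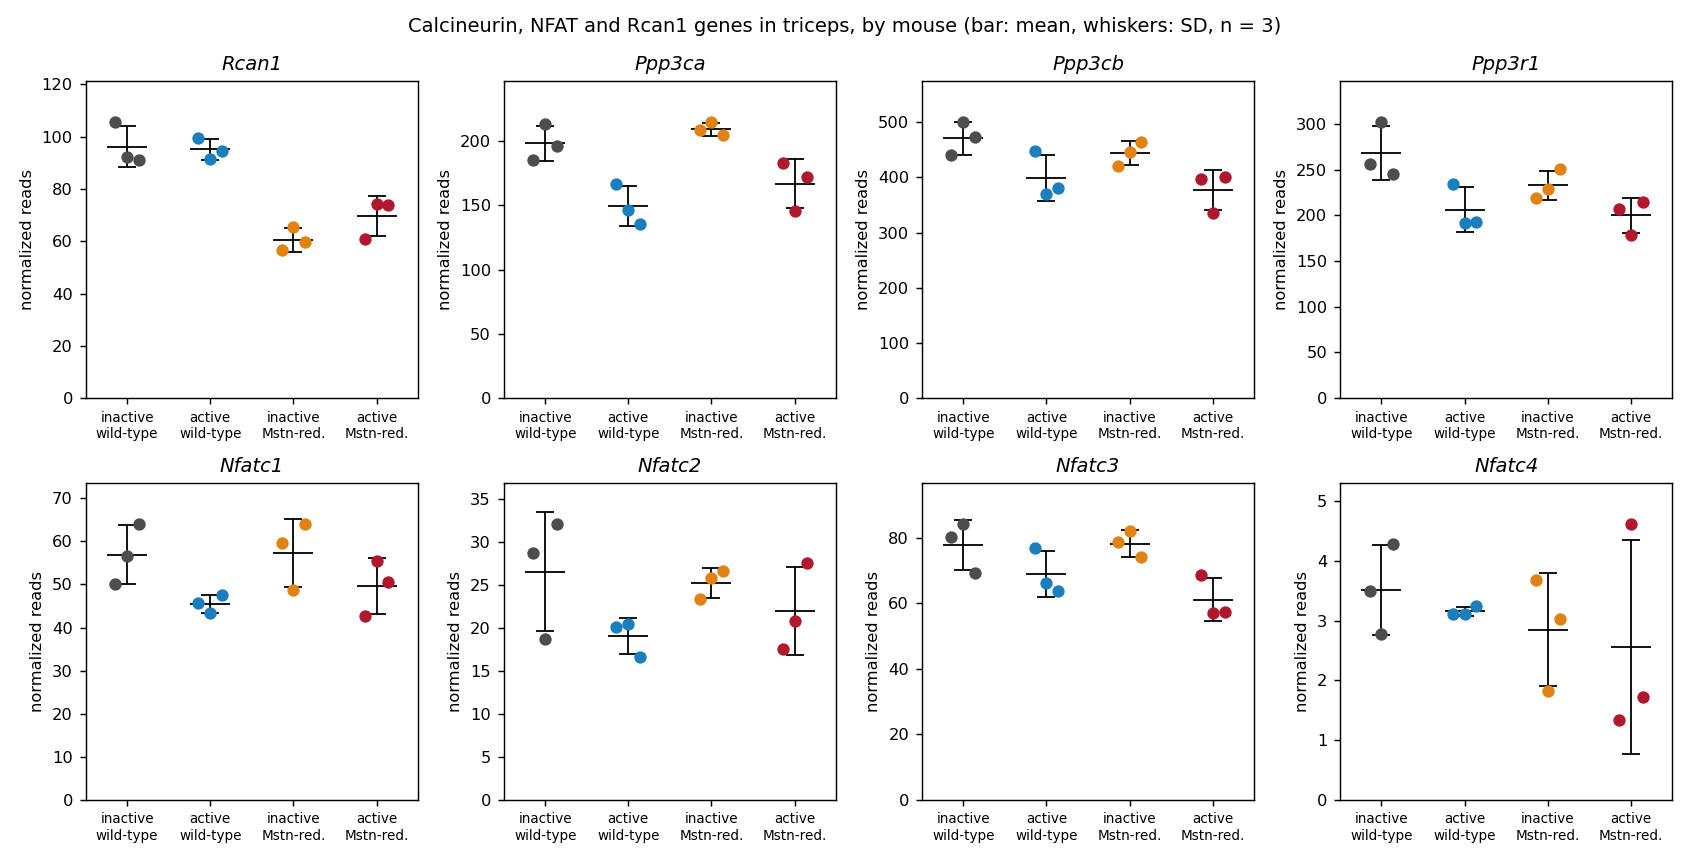
Normalized reads (vertical axes, from 0) of the 8 genes in each of the 12 mice, by group on the horizontal axes (Mstn-red. means myostatin-reduced). Points are mice, and bars and whiskers are the mean and SD of 3 mice. Rcan1 was between 56.5 and 74.4 in the 6 myostatin-reduced mice and between 91.2 and 106 in the 6 wild-type mice, and Ppp3ca was lower in the active mice of both genotypes.

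Rcan1 was lower in the myostatin-reduced mice. It was read at 106, 92.1 and 91.2 normalized reads in the 3 inactive wild-type mice and at 99.5, 91.6 and 94.4 in the active wild-type mice. In the myostatin-reduced mice it was read at 56.5, 65.5 and 59.7 when inactive and at 60.8, 74.4 and 73.9 when active. Each of the 6 myostatin-reduced mice was thus below each of the 6 wild-type mice, which held in that direction for 1.15% of the 7247 genes tested. The means were 95.7 ± 5.70 (SD, n = 6) in wild-type and 65.1 ± 7.57 (SD, n = 6) in myostatin-reduced mice, 32.0% lower.

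The fitted genotype change of Rcan1 was −0.55 (SE 0.0647, adjusted p = 0.000762, limma) on the scale of log2(normalized reads + 1), the scale of every log2 change given here. Among all genes tested, 5.78% were called for genotype at an adjusted p under 0.05, and 2.21% were called lower. Within inactive mice Rcan1 was 37.1% lower (log2 change −0.66, SE 0.0915, adjusted p = 0.00438, limma), where 2.51% of genes were called. Within active mice it was 26.8% lower (log2 change −0.45, SE 0.0915), where its adjusted p was 0.103 (limma) and 0.207% of genes were called. The genotype call of Rcan1 held under each of the 10 other processing settings and with each of the 12 mice left out in turn, with adjusted p (limma) between 0.000488 and 0.00376.

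The 6 other tested genes were not called for genotype. Their log2 changes ran from −0.12 for Ppp3r1 to 0.12 for Ppp3ca. The 95% interval was −0.28 to 0.04 for Ppp3r1 and −0.03 to 0.26 for Ppp3ca, so changes of either size were not detectable with 6 mice a side. Under equal sums Ppp3r1 stood at −0.18 (adjusted p = 0.0730), Ppp3cb at −0.15 (adjusted p = 0.0825) and Ppp3ca at 0.06, and with the slow-fibre score (defined further on) in the fit at −0.20 (adjusted p = 0.0694), −0.15 (adjusted p = 0.118) and 0.05, none of them called by limma. The NFAT genes lay close to 0, with 0.06 for Nfatc1 (adjusted p = 0.717), 0.07 for Nfatc2 (adjusted p = 0.800) and −0.08 for Nfatc3 (adjusted p = 0.533) in the same limma fit. Rcan1 was thus the only tested gene of the set called for genotype in this fit, and the difference between Rcan1 and the subunit genes was not tested. The ratio of Ppp3cb to Ppp3ca, given further on, did differ by genotype.

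Transcripts of the calcineurin subunits Ppp3ca, Ppp3cb and Ppp3r1 and of Nfatc3 were lower in active mice, and Rcan1 was not called. Ppp3ca had the widest gap. It was read at 186, 213 and 196 normalized reads in the inactive wild-type mice and at 209, 215 and 205 in the inactive myostatin-reduced mice. The active wild-type mice had 166, 147 and 135, and the active myostatin-reduced mice 183, 146 and 172. All 6 active mice lay below all 6 inactive mice, which held in that direction for 1.2% of genes tested.

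The mean of Ppp3ca was 204 ± 11.1 (SD, n = 6) in inactive and 158 ± 18.3 (SD, n = 6) in active mice, 22.4% lower. The fitted activity change was −0.37 (SE 0.0671, adjusted p = 0.00435, limma), beside 14.5% of genes called for activity and 6.51% called lower. In the fit limited to genes with a mean of at least 50, 17.1% were called lower. The change of Ppp3ca was −0.41 within wild-type mice (adjusted p = 0.0966) and −0.33 within myostatin-reduced mice (adjusted p = 0.0507), so neither limma comparison of 3 against 3 mice called it alone. Within wild-type mice it was called with sample weights (adjusted p = 0.0130) or without active wild-type mouse 1 (adjusted p = 0.0292). Within myostatin-reduced mice it was called at a minimum mean of 50 (adjusted p = 0.0305), with median-of-ratios scaling (adjusted p = 0.0452), with sample weights (adjusted p = 0.0222), and without active wild-type mouse 1 or 3 or active myostatin-reduced mouse 1 (adjusted p down to 0.0229), all in limma fits. Of all genes 0.0276% were called within wild-type and 7.84% within myostatin-reduced mice. The activity call of Ppp3ca held under each of the 10 other settings and with each mouse left out in turn, with adjusted p (limma) between 0.000665 and 0.0210.

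Ppp3cb was read at 440, 500 and 473 normalized reads in inactive wild-type and at 421, 446 and 464 in inactive myostatin-reduced mice. Active wild-type mice had 447, 370 and 380, and active myostatin-reduced mice 397, 335 and 400. Active and inactive mice overlapped through the active wild-type mouse at 447. The mean was 15.1% lower in active mice, with a fitted activity change of −0.24 (SE 0.0649, adjusted p = 0.0288, limma).

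Ppp3r1 was read at 257, 302 and 246 normalized reads in inactive wild-type and at 219, 228 and 251 in inactive myostatin-reduced mice. Active wild-type mice had 234, 192 and 193, and active myostatin-reduced mice 207, 178 and 215. Within each genotype every active mouse was below every inactive mouse, as for 8.38% of genes tested in wild-type and 15.2% in myostatin-reduced mice. The mean was 18.9% lower in active mice, and the activity change was −0.30 (SE 0.0743, adjusted p = 0.0201, limma). An exon of Ppp3r1 overlaps one of Wdr92 on the same strand in the annotation, and reads there cannot be assigned to one gene.

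Among the NFAT genes, which encode the factors that calcineurin dephosphorylates, Nfatc3 was called. It was read at 80.2, 84.2 and 69.4 normalized reads in inactive wild-type and at 78.6, 82.1 and 74.0 in inactive myostatin-reduced mice. Active wild-type mice had 77.0, 66.1 and 63.8, and active myostatin-reduced mice 68.6, 57.0 and 57.5. The active and inactive mice overlapped in the wild-type but not in the myostatin-reduced groups. Its activity change was −0.27 (SE 0.0701, adjusted p = 0.0258, limma). It was also the only gene of the set called between active and inactive myostatin-reduced mice (−0.36, adjusted p = 0.0463, limma), and that call was lost (adjusted p up to 0.183) when single mice were left out in 8 of 12 cases: inactive wild-type mouse 1, any of the 3 inactive myostatin-reduced mice, active wild-type mouse 2 or 3, or active myostatin-reduced mouse 2 or 3. It was lost too without a minimum mean (adjusted p = 0.0519) and without a trend (adjusted p = 0.0604), both at an unchanged −0.36, under equal sums (−0.24, adjusted p = 0.123) and with the slow-fibre score (defined further on) in the fit (−0.30, adjusted p = 0.167) in limma fits.

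Nfatc1 was read at 50.1, 56.6 and 64.0 normalized reads in inactive wild-type and at 59.5, 48.6 and 64.0 in inactive myostatin-reduced mice. Active wild-type mice had 45.8, 43.3 and 47.5, and active myostatin-reduced mice 42.8, 55.5 and 50.6. Every active mouse was below every inactive mouse in the wild-type but not in the myostatin-reduced groups, and the change of −0.26 was not called (SE 0.0849, adjusted p = 0.0600, limma). Nfatc2 ranged from 18.7 to 32.0 in inactive mice (median 26.2) and from 16.6 to 27.5 in active mice (median 20.3). Its change of −0.32 had the widest error of the 7 tested genes (SE 0.131, adjusted p = 0.118, limma). Nfatc4, fitted only without a minimum on the mean, had an activity change of −0.15 (adjusted p = 0.679) and a genotype change of −0.29 (adjusted p = 0.466) in that limma fit. Every gene of the table had a highest group mean of 3.0 or more. Nfatc4 reached that only in inactive and active wild-type mice (3.52 and 3.16), against 2.85 and 2.56 in the myostatin-reduced groups. The genotype change of Nfatc4 therefore cannot be told apart from that selection.

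The activity calls of 3 of these genes were each lost in several of the fits with 1 mouse left out, with changes near those over all mice. The call of Ppp3cb was lost without inactive wild-type mouse 2 or 3, inactive myostatin-reduced mouse 2 or 3, active wild-type mouse 2 or 3, or active myostatin-reduced mouse 2 (changes of −0.24 to −0.20 against −0.24, adjusted p of 0.0543 to 0.0778, limma). That of Ppp3r1 was lost without inactive wild-type mouse 2, inactive myostatin-reduced mouse 3, active wild-type mouse 2 or 3, or active myostatin-reduced mouse 2 (changes of −0.28 to −0.25 against −0.30, adjusted p of 0.0517 to 0.0589, limma). That of Nfatc3 was lost without inactive wild-type mouse 2, inactive myostatin-reduced mouse 1 or 2, active wild-type mouse 2 or 3, or active myostatin-reduced mouse 2 or 3 (changes of −0.26 to −0.24 against −0.27, adjusted p of 0.0503 to 0.0737, limma). Of all genes, 2.46% to 6.61% were called lower in the fits where a call was lost, against 6.51% over all mice. Nfatc1 was called without inactive wild-type mouse 1 or inactive myostatin-reduced mouse 2 (adjusted p down to 0.0323, limma), and Nfatc2 without inactive wild-type mouse 2 or active myostatin-reduced mouse 3 (adjusted p down to 0.0303, limma). In each of these cases the change kept its direction.

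Scaling also bore on the activity changes. When each mouse was scaled to the same sum of reads, the median activity change of all genes moved by 0.10, from −0.02 to 0.08, and the share of activity calls that were lower went from 44.9% to 9.64%. Under that scaling Ppp3ca (−0.26, adjusted p = 0.00617) and Ppp3r1 (−0.19, adjusted p = 0.0388) were still called lower in the limma fit. Ppp3cb (−0.13, adjusted p = 0.0723) and Nfatc3 (−0.16, adjusted p = 0.109) were not. For genotype the share of lower calls went from 38.2% to 71.4%, and Rcan1 stood at −0.62 (adjusted p = 0.000751, limma).

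**Figure D2:**
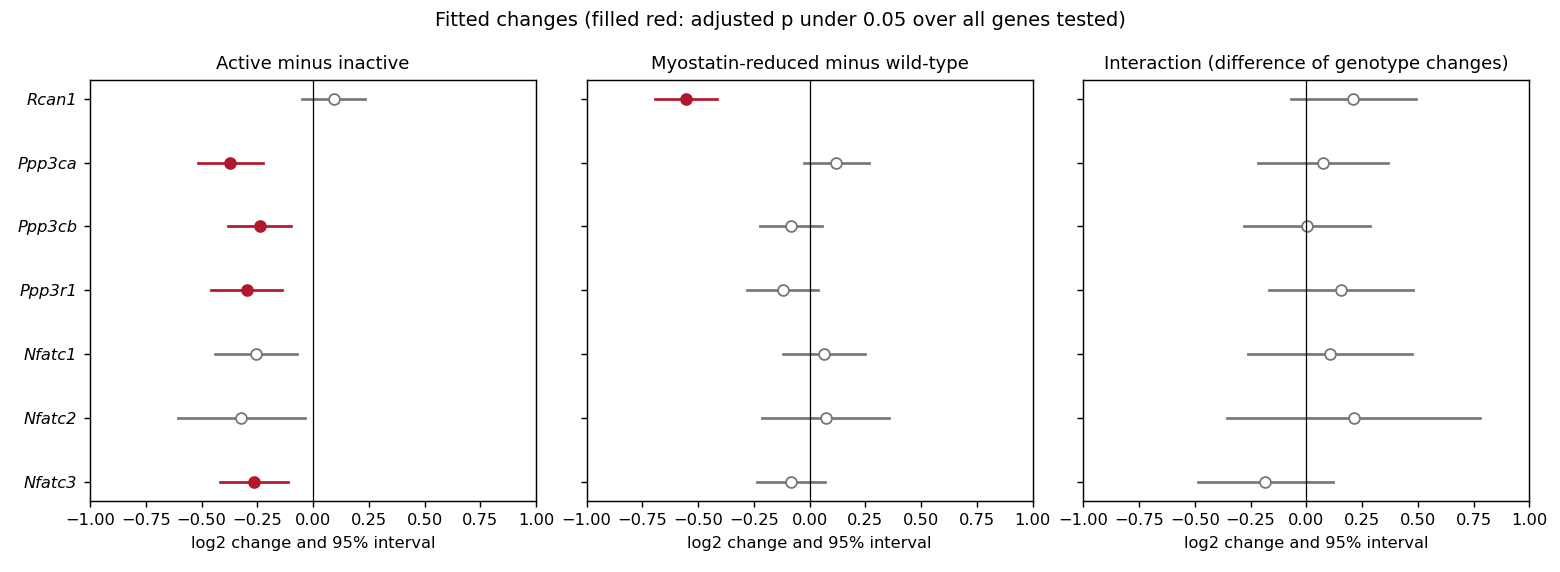
Fitted log2 changes (horizontal axes) with 95% intervals for the 7 tested genes (vertical axes), for activity, genotype and their interaction. Filled red points have an adjusted p under 0.05 over all genes tested. Ppp3ca, Ppp3cb, Ppp3r1 and Nfatc3 lie below 0 for activity, Rcan1 lies below 0 for genotype at −0.55, and no gene is filled for the interaction.

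Rcan1 changed by 0.09 with activity (SE 0.0647, adjusted p = 0.363, limma), with a 95% interval from −0.05 to 0.23. Under equal sums it was 0.20 (adjusted p = 0.0628, limma). Without that scaling 6 of the 7 tested genes had a change below 0, as had 55.5% of all genes tested. The median activity change of the 7 genes was −0.27, against −0.02 over all genes. Within wild-type mice the Rcan1 change was −0.01, and within myostatin-reduced mice it was 0.20 (SE 0.0915, adjusted p = 0.195, limma). That last change was called without active myostatin-reduced mouse 1 (0.29, adjusted p = 0.0414, limma).

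The genotype change was not shown to depend on activity for any of the 7 genes. The interaction of Rcan1 was 0.21 (SE 0.129, adjusted p = 0.890, limma), with a 95% interval from −0.07 to 0.49. The other interactions ran from −0.18 for Nfatc3 to 0.21 for Nfatc2. Over all 7247 genes limma called 0 interactions, and 297 genes (4.1%) had an unadjusted p under 0.05.

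The proportion of the 2 catalytic subunits differed by genotype and, in wild-type mice, by activity. Ppp3cb over Ppp3ca, each per kilobase, was 2.95 ± 0.0443 (SD, n = 3) in inactive wild-type and 3.32 ± 0.180 in active wild-type mice. It was 2.63 ± 0.162 in inactive and 2.81 ± 0.101 in active myostatin-reduced mice. At either activity, every myostatin-reduced mouse had a lower ratio than every wild-type mouse, with 2.50 to 2.81 against 2.91 to 3.00 when inactive and 2.70 to 2.89 against 3.14 to 3.49 when active. Among wild-type mice every active mouse also had a higher ratio than every inactive mouse, while the myostatin-reduced groups overlapped. How many other pairs of genes separate in this way was not examined, so the separation is not shown to be particular to this pair. A ratio within a mouse does not depend on how the libraries were scaled. It was chosen after the values were seen, so no test is given.

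Across the 12 mice the calcineurin subunits moved together. Pearson's r of the log2 values was 0.95 between Ppp3cb and Ppp3r1, 0.80 between Ppp3ca and Ppp3cb and 0.76 between Ppp3ca and Ppp3r1. With the 4 group means removed r was 0.90, 0.86 and 0.77. Rcan1 did not follow them closely, with r of −0.41 with Ppp3ca, 0.10 with Ppp3cb and 0.19 with Ppp3r1. These are descriptions over 12 mice, which share library preparation and scaling, and carry no test.

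Mice of 1 group differed widely in slow-fibre transcripts. Myh7, the slow myosin heavy chain, was read at 376, 1.29 and 63.1 in the 3 inactive wild-type mice. A slow-fibre score was taken as the mean log2 deviation of 9 slow-fibre genes (Myh7, Myl2, Myl3, Tnnc1, Tnni1, Tnnt1, Tpm3, Atp2a2 and Casq2) from their means over the mice. It ran from −2.21 to 2.09 in inactive wild-type and from −1.10 to 2.65 in active wild-type mice, and from −2.39 to −1.49 in inactive and from −1.76 to 2.21 in active myostatin-reduced mice. Of these 9 genes, 1 was called for activity, the calcium store protein gene Casq2 (1.34, adjusted p = 0.00306, limma), and 0 for genotype. With sample weights, or without active wild-type mouse 1, 5 of the 9 were called higher with activity (Casq2, Myl3, Tnnt1 and Tpm3 in both, with Tnni1 in the first and Atp2a2 in the second), beside 11.3% and 10.2% of all genes. Of 8 fast-fibre genes, Myh1 was called higher with activity (1.51), beside 7.99% of all genes, and Myh4, Actn3 and Mybpc2 lower, beside 6.51%. The activity call of Actn3 was lost without inactive wild-type mouse 2 or active wild-type mouse 2 or 3 (adjusted p up to 0.0553, limma), and that of Mybpc2 without active wild-type mouse 3 (adjusted p = 0.0512, limma). Pvalb, which encodes the calcium buffer parvalbumin, changed by −0.36 with activity (adjusted p = 0.0577, limma) and was called lower with activity at a mean of at least 50, with median-of-ratios scaling, with sample weights, and without inactive wild-type mouse 1, active wild-type mouse 1 or active myostatin-reduced mouse 3 (adjusted p of 0.00884 to 0.0478, limma). Actn3 and Mybpc2 were called higher with genotype, beside 3.57% of all genes. Both genotype calls held only without inactive wild-type mouse 2, active wild-type mouse 1 or active myostatin-reduced mouse 2, with adjusted p up to 0.102 and 0.119 without other mice (limma), and both were lost with the replicate block (adjusted p = 0.0556 and 0.0677, limma). That of Mybpc2 was also lost without a minimum mean (adjusted p = 0.0558, limma).

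Ppp3ca was lower in mice with a higher score. Over the 12 mice Pearson's r was −0.76 (permutation p = 0.0060, adjusted over 8 genes 0.0480, two-sided) and Spearman's rho was −0.76 (permutation p = 0.0062, adjusted 0.0496). Without active wild-type mice 2 and 3, the 2 farthest from the median score, r was −0.60 (permutation p = 0.0631, adjusted 0.411), and the call was lost. No other mice were left out of this correlation, so the loss is not shown to be particular to them. With the group means removed r was −0.73 for Ppp3ca, −0.79 for Ppp3cb and −0.78 for Ppp3r1, and the exact permutation p within groups, over 1296 arrangements, was 0.0748, 0.0208 and 0.0278 (adjusted 0.200, 0.111 and 0.111). None passed the adjustment, and the direction was lower with more slow-fibre transcripts in all 3. For Ppp3cb over the 12 mice r was −0.66 (permutation p = 0.0221, adjusted 0.0885) and rho −0.62 (permutation p = 0.0372, adjusted 0.133), and for Ppp3r1 r was −0.59 (permutation p = 0.0446, adjusted 0.119) and rho −0.54 (permutation p = 0.0747, adjusted 0.133).

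Rcan1 had r of 0.43 (permutation p = 0.161, adjusted 0.215) and rho of 0.49 (permutation p = 0.110, adjusted 0.147) with the score, and r of 0.06 with the group means removed. When the score was added to the fit as a covariate, Rcan1 kept its genotype change of −0.55 (adjusted p = 0.00153, limma) and Ppp3ca its activity call (−0.28, adjusted p = 0.0210, limma). Ppp3cb (−0.14, adjusted p = 0.148), Ppp3r1 (−0.18, adjusted p = 0.108) and Nfatc3 (−0.22, adjusted p = 0.130) were no longer called for activity in that limma fit. The score and activity overlapped across these mice, and their parts in the changes cannot be told apart.

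**Figure D3:**
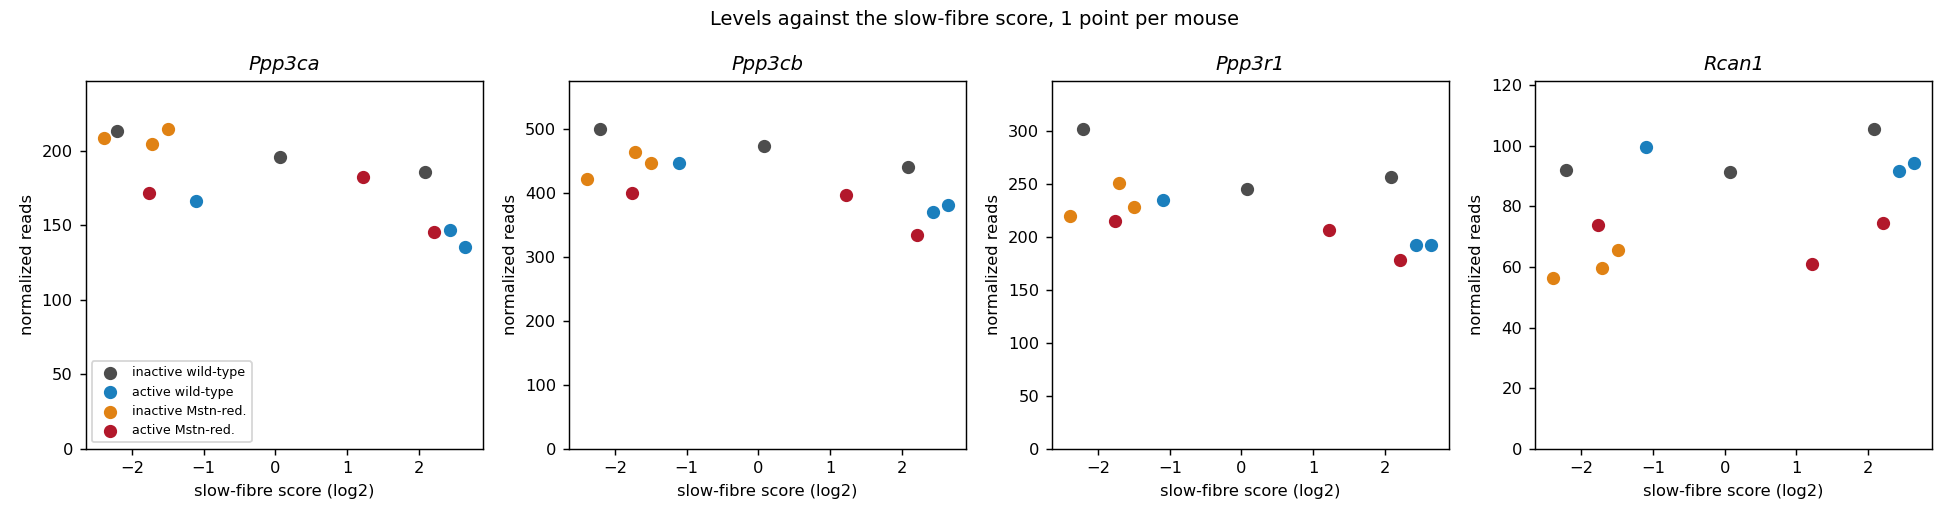
Normalized reads (vertical axes, from 0) of Ppp3ca, Ppp3cb, Ppp3r1 and Rcan1 against the slow-fibre score (horizontal axes, log2 deviation), 1 point per mouse, coloured by group (Mstn-red. means myostatin-reduced). The subunit genes lie lower in mice with a high score (r −0.76 for Ppp3ca), while Rcan1 separates by genotype at all scores.

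Transcripts of other cell types were compared beside these results. Endothelial markers (5 of 5 in the table) summed to between 224 and 287 normalized reads in inactive wild-type, 221 and 380 in active wild-type, 196 and 211 in inactive myostatin-reduced and 252 and 416 in active myostatin-reduced mice. The inactive myostatin-reduced mice thus lay below the other 3 groups. The muscle fibre markers stood highest in that group, at 191649 to 197106, against 145237 to 177283 in inactive wild-type, 120958 to 148357 in active wild-type and 125854 to 161082 in active myostatin-reduced mice. A large part of these sums was Myh4, the fast-fibre gene called lower with activity. The mean of Myh4 was 105944 in inactive myostatin-reduced, 84376 in inactive wild-type, 62244 in active wild-type and 66419 in active myostatin-reduced mice. The sums therefore do not measure muscle content apart from fibre type. Fibroblast markers (3 of 3) summed to between 271 and 403 in all mice. The immune markers present (3 of 7) summed to between 14.3 and 26.7, the adipocyte markers (2 of 3) to between 3.78 and 16.8 and the Schwann cell markers (2 of 3) to between 4.76 and 33.5. No marker in the table was at 0 in any mouse, but neither was any other gene of the table. Cd3e, Cd68, Cd79a, Itgam, Retn and S100b were not among the rows. The part of these cells in the changes above was not tested.

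The other regulators of calcineurin gave 1 higher and 1 lower activity call among 8 tested of 12 listed, beside 7.99% of all genes called higher and 6.51% lower. Rcan2, a relative of Rcan1 that also binds calcineurin, was read at 160, 130 and 145 normalized reads in inactive wild-type and at 117, 117 and 95.3 in inactive myostatin-reduced mice. Active wild-type mice had 145, 192 and 189, and active myostatin-reduced mice 164, 185 and 142. Its activity change was 0.42 (SE 0.0924, adjusted p = 0.0115, limma), 33.1% higher, beside 7.99% of genes called higher. With the slow-fibre score as a covariate it was 0.26 (SE 0.0677, adjusted p = 0.0445, limma). Its genotype change of −0.25 was not called (adjusted p = 0.134, limma), except without active wild-type mouse 1 (−0.31, adjusted p = 0.0410, limma). Within myostatin-reduced mice the Rcan2 activity change was 0.57 (adjusted p = 0.0232, limma), beside 7.84% of genes called. That call was lost with the score as a covariate, without any inactive myostatin-reduced mouse and without active myostatin-reduced mouse 2 (adjusted p up to 0.118, limma). Not called were its changes of 0.27 with activity within wild-type mice and −0.40 with genotype within inactive mice (adjusted p = 0.361 and 0.136, limma). The 2 Rcan genes thus had different calls over all mice, Rcan1 for genotype and Rcan2 for activity, and the difference between the genes was not tested.

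Myoz3, which encodes a calsarcin, a protein that tethers calcineurin to the Z-disc, changed by −0.30 with activity (SE 0.0661, adjusted p = 0.0113, limma). It ranged from 373 to 475 normalized reads in inactive and from 320 to 399 in active mice. Myoz1, the calsarcin of fast fibres, changed by −0.20 (adjusted p = 0.103), and Myoz2, the calsarcin of slow fibres, by 1.52 (SE 0.560, adjusted p = 0.0883), neither of them called in this limma fit. Both were called with sample weights and without active wild-type mouse 1 or active myostatin-reduced mouse 3, and Myoz2 also without inactive wild-type mouse 1 (adjusted p of 0.0194 to 0.0466, limma). Myoz2 varied from 10.9 to 63.8 within the inactive wild-type mice alone. Under equal sums 1500003O03Rik, the row matched to Chp1, was called higher with activity (0.14, adjusted p = 0.0383, limma, against 0.03 as deposited), beside 19% of all genes. No regulator was called for genotype over all mice. Rcan3 and Akap5 were under the minimum mean, and Chp2 and Ppia were not matched to a row.

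The third catalytic subunit gene, Ppp3cc, was read at 23.5 to 30.8 normalized reads, with an activity change of 0.06 (adjusted p = 0.588, limma) and a genotype change of −0.0035 (adjusted p = 0.984, limma). Ppp3r2, a second regulatory subunit gene, was not matched to a row. Calmodulin carries calcium to calcineurin. Of its genes, Calm3 changed by −0.24 with activity (adjusted p = 0.0864, limma) and Calm2 by −0.05, and neither was called for activity or genotype. Calm3 was called lower with activity with sample weights (adjusted p = 0.0182, limma) and without active wild-type mouse 1 (adjusted p = 0.0164, limma), and without that mouse it was called higher with genotype (0.29, adjusted p = 0.0400, limma).

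Among 12 genes for kinases that phosphorylate NFAT and for nuclear export, 2 were called lower with activity, beside 6.51% of all genes, and 1 higher with genotype. Without active wild-type mouse 1 the count lower with activity was 6, with Csnk1e, Dyrk1a, Dyrk2 and Mapk9 added, beside 10.3% of all genes in that fit, and with sample weights it was 4, with Csnk1e and Dyrk1a added, beside 12.8%. Dyrk1b, a kinase of the DYRK family, of which members phosphorylate NFAT, was read at 56.0, 68.1 and 69.1 normalized reads in inactive wild-type mice and at 61.8, 58.0 and 57.9 in active wild-type mice. The myostatin-reduced mice had 103, 88.9 and 116 when inactive and 98.8, 84.0 and 93.6 when active. All 6 myostatin-reduced mice were above all 6 wild-type mice, which held in that direction for 1.24% of genes tested.

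Dyrk1b was 57.6% higher in myostatin-reduced mice, with a genotype change of 0.64 (SE 0.0747, adjusted p = 0.000762, limma), beside 3.57% of genes called higher. That call held under all 10 other settings and with each of the 12 mice left out. Its activity change was −0.13 (adjusted p = 0.256, limma). Gsk3b, a kinase that returns NFAT to the cytoplasm, changed by −0.25 with activity (SE 0.0600, adjusted p = 0.0169, limma), and the call was lost without active wild-type mouse 3 (−0.23, adjusted p = 0.0520, limma). Mapk14, which encodes p38 alpha, changed by −0.18 (SE 0.0523, adjusted p = 0.0421, limma), and this call was lost when single mice were left out in 8 of 12 cases: any but inactive wild-type mouse 1, active wild-type mouse 1 and active myostatin-reduced mice 1 and 3 (adjusted p up to 0.102, limma). Under equal sums neither Gsk3b (−0.14, adjusted p = 0.116) nor Mapk14 (−0.07, adjusted p = 0.260) was called in the limma fit, and neither was with the slow-fibre score as a covariate (Gsk3b −0.24, SE 0.0701, adjusted p = 0.0746, and Mapk14 −0.11, SE 0.0497, adjusted p = 0.211). Mapk14 was not called without a trend either (adjusted p = 0.0584, limma).

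Other calcineurin substrates, together with Nfat5, which calcineurin does not control, gave no call for either main change among 8 tested of 9 listed. Their activity changes ran from −0.30 for Mef2a to 0.17 for Nfat5, with a median of −0.10, against −0.02 for all genes. Some were called lower with activity in other fits, 3 with sample weights (Mef2a, Crtc3 and Tcfeb), 2 without active wild-type mouse 1 (Crtc3 and Tcfeb), and 1 with median-of-ratios scaling (Crtc3), with the replicate block (Mef2a), without active myostatin-reduced mouse 1 (Mef2a) or without active myostatin-reduced mouse 3 (Crtc3). Of all genes, 12.8% were called lower with sample weights, 10.3% without active wild-type mouse 1, and 6.61% to 9.37% in the other 4 of these fits. Mef2a, a muscle transcription factor, was called lower between active and inactive myostatin-reduced mice (−0.55, adjusted p = 0.0491, limma). That call held without inactive wild-type mouse 3, active wild-type mouse 1 or active myostatin-reduced mouse 1, and was lost in the other 9 fits with 1 mouse left out (adjusted p up to 0.200, limma). It was also lost without a minimum mean, with median-of-ratios scaling, under equal sums, without a trend and with the slow-fibre score as a covariate (adjusted p of 0.0510 to 0.142, limma), with changes of −0.56 to −0.43. Bad was under the minimum mean.

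**Figure D4:**
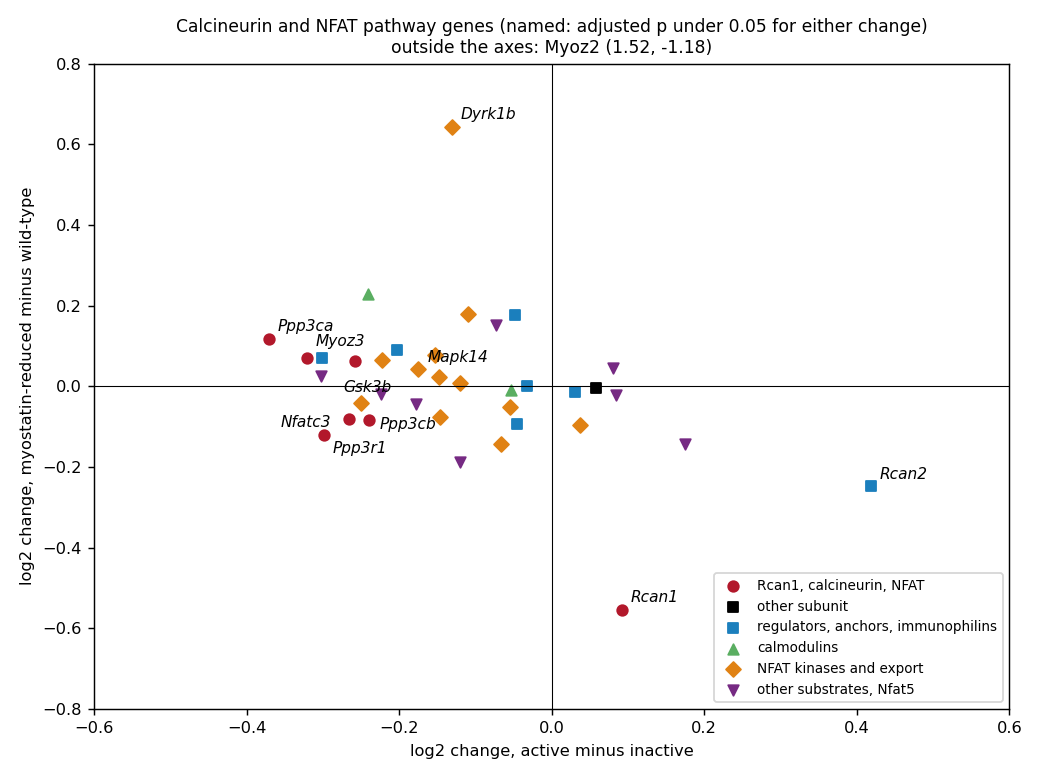
Log2 change with activity (horizontal axis) against log2 change with genotype (vertical axis) for the pathway genes reported here, 1 point per gene, with a symbol per list. Named genes had an adjusted p under 0.05 for either change. Rcan1 lies at the foot of the plot at −0.55 for genotype and Dyrk1b at the top at 0.64, while Rcan2 lies farthest right of the genes drawn, at 0.42 for activity. Myoz2 (1.52 for activity, −1.18 for genotype) is outside the axes.

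The genes whose pattern over the 12 mice was most like that of Rcan1 were sought among the 2550 genes outside the set whose mean reached 50. The highest Pearson's r of the log2 values was 0.96 with Ankrd23, followed by Hnrnpa2b1 (0.93), Kcna7 (0.93), Yipf7 (0.93) and Ramp1 (0.92). The lowest was −0.95 with Dyrk1b, followed by Aplp2 (−0.92) and Sh3pxd2a (−0.91). With the group means removed these r fell to between 0.43 and 0.65 at the high end, and stood between −0.81 and −0.54 at the low end. For Ppp3ca the highest were Kcnj12 (0.96), Pip4k2b (0.95), Map2k4 (0.95), Rhobtb3 (0.94) and Scn4a (0.94), and the lowest Tmsb4x (−0.97), Atp5k (−0.97) and Cox7a1 (−0.96). With the group means removed r for these was 0.66 to 0.96 and −0.91 to −0.88. The likeness is a description over 12 mice and has no p.

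The other genes of the set lie as follows in the NCBIM37 annotation. Ppp3ca spans chromosome 3, 136333088 to 136600691 on the plus strand, Ppp3cb chromosome 14, 21318586 to 21365795 on the minus strand, and Ppp3r1 chromosome 11, 17059266 to 17100378 on the plus strand. Nfatc1 spans chromosome 18, 80802944 to 80909810 on the minus strand, and Nfatc2 chromosome 2, 168301910 to 168427157 on the minus strand. Nfatc3 spans chromosome 8, 108582740 to 108654437, and Nfatc4 chromosome 14, 56443632 to 56452780, both on the plus strand. An exon of Nfatc3 overlaps one of Esrp2 on the opposite strand. Reads were counted over exons and summed to the gene, so no value belongs to 1 exon or 1 untranslated region.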

How the data were processed

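RNA of 12 triceps samples was sequenced by the authors as single-end reads, aligned with CASAVA to mm9 (version not given in the sources used here) and counted over RefSeq exons summed per gene. The deposited signal is the normalized read count per gene, scaled by the authors so that means trimmed of the highest and lowest genes were equal. The values were whole multiples of 1 read (tolerance 0.0056) for 88.8% to 91.2% of values under 5 but only 41.8% to 69.0% between 20 and 50, so whole reads were not recovered and no count test was run. A floor of 3 reads came to 0.231 to 0.316 normalized reads, which covers counting error only.

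Values were fitted as log2(value + 1) with limma 3.58.1 (R 4.3.3, 4 group means, trended empirical Bayes, two-sided) for the 7247 genes whose mean reached 10, and p-values were adjusted by Benjamini-Hochberg over them. A call is an adjusted p under 0.05. Scripts were tested on simulated data. Same-numbered mice deviated together between the myostatin-reduced groups (r of 0.17 to 0.32) but not in every pair of the other groups, so the main fit has no block. Correlations with the slow-fibre score used 100000 permutations. Coordinates come from GENCODE vM1 on NCBIM37, the assembly that mm9 names, and were not converted to or from GRCm38.p6. The symbols Ppp3r2, Chp2 and Ppia had no row, and Chp1 and Tfeb were matched to 1500003O03Rik and Tcfeb through RefSeq synonyms.

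The genes, lists and tests were chosen with earlier results of these data known. The text names the 8 genes, Mstn, the listed pathway and fibre genes, and the 5 most and 3 least similar genes to Rcan1 and to Ppp3ca. Alternatives were another pseudocount, minimum mean, scaling, sample weights, an untrended fit, a replicate block, the slow-fibre score as covariate, and leaving out each mouse. A gene of the pathway lists is not reported here.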

Additional observations from a re-analysis of the deposited data

How the results depend on the processing

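No change of the 7 tested genes reversed past the threshold under any of the 10 settings or 12 leave-outs. With activity 1051 genes were called, and 1740 with sample weights, 402 with the slow-fibre score as a covariate and 552 to 1488 with 1 mouse left out. For genotype the count was 419, with 272 at a mean of at least 50 and 182 to 573 with 1 mouse left out, and for the interaction it was 0, with 0 to 1. Active against inactive wild-type mice gave 2 genes, and 39 at a mean of at least 50, 1 under equal sums, 415 with weights, 22 with the score and 0 to 198 with 1 mouse left out. In myostatin-reduced mice the 568 became 877 under equal sums, 931 with weights, 199 with the score and 86 to 1098 with 1 mouse left out. The genotype comparison in inactive mice gave 182, then 334 with weights, 121 with the score and 23 to 216 with 1 mouse left out. In active mice it gave 15, then 7 at a mean of at least 50, 29 with the score and 4 to 18 with 1 mouse left out. The correlation of Ppp3ca with the slow-fibre score was −0.73 with group means removed and −0.72 against Myh7 alone, neither past the threshold after adjustment (0.200 and 0.0962, permutation).

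The replicate numbers were not stated to pair mice, and deviations of same-numbered mice correlated between −0.53 and 0.48 over the 4 pairs of groups. With the replicate block the count was 0 for active against inactive wild-type mice, 98 for genotype in inactive mice and 9 in active mice. Under the block Nfatc1 was called for activity (adjusted p = 0.0495, limma), as it was at a mean of at least 50 (adjusted p = 0.0416, limma), Mef2a was called for activity too (adjusted p = 0.0297, limma), and the other 6 tested genes kept their calls for activity and genotype. The cause of these shifts was not tested. Of the 8 genes of the set, Nfatc4 had the lowest mean, at 3.02 normalized reads.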
